A study of Mus musculus with 8 samples.

Results

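Autophagy and mitophagy were followed through 10 genes, chosen by name: the cargo and mitophagy receptors Sqstm1, Bnip3 and Bnip3l, the mitochondrial kinase Pink1, the ATG8 family members Map1lc3a, Map1lc3b and Gabarapl1, and the genes of the earlier steps Ulk1, Becn1 and Atg5. For each gene the probes annotated to one of its RefSeq transcripts were taken, and among those well above the local background on at least 4 arrays the brightest represented the gene. All 10 genes had such a probe, out of 15156 genes of the series with one. The array carried 15 probes for them, each well above background on all 8 arrays and none saturated. Adult male mice of the C57BL\6 background were compared 24 hours after surgery. MI mice (n = 4) had a permanent occlusion of the anterior interventricular artery, and sham mice (n = 4) had a sham operation. Total RNA of the ventricles was hybridized in 1 colour, with 1 array per mouse and no pooling, so that infarcted and spared muscle of a mouse were measured together. No genetic change or drug separated the groups. Mice of both groups were also imaged by FDG-PET, which per the paper's methods involved Acipimox and FDG injections and recording under isoflurane.

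Autophagy encloses cytoplasm in a double membrane, the autophagosome, and delivers it to lysosomes for digestion. The ULK1 kinase starts the process, a lipid kinase complex that contains Beclin 1 (Becn1) marks the membrane, and ATG5, joined to ATG12, helps to attach proteins of the ATG8 family (LC3 and GABARAP proteins) to it. Receptors such as p62 (Sqstm1) bind ATG8 proteins and bring cargo, and BNIP3, NIX (Bnip3l) and the PINK1 kinase mark mitochondria for the form called mitophagy. Heart muscle, dense in mitochondria, relies on this turnover, and Bnip3 is a known target of hypoxia-inducible factor. Arrays measure transcripts, so these values say nothing of the flux through the pathway.

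The share of spots well above background ranged over the arrays from 58.6% to 66.4%, and correlations between arrays of a group were at least 0.993. The cardiomyocyte markers Myh6, Myl2, Myl3 and Tnnt2 were well above background on all 8 arrays, and 0 of the 12 cardiomyocyte markers were called on the spike-in scale. Neutrophil markers rose: 7 of 10 were called higher in MI mice, and the summed linear signal of the list ran from 257990 to 374024 units in MI mice and from 80370 to 122948 units in sham mice. S100a9, the brightest neutrophil marker, which encodes a calcium-binding protein, was 6.88-fold higher (limma, adjusted p = 0.000135). Of the other marker lists, 2 of 9 retained monocyte and macrophage markers and 1 of 5 smooth muscle markers were called higher, and none of the retained lymphocyte, fibroblast, endothelial or erythroid markers were called. The part of these cells in the values below was not tested. Values are log2 signals scaled between arrays with the spike-in RNA (the spike-in scale), and a gene was called when limma's p, adjusted over all 34038 retained probes, was under 0.05.

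On the spike-in scale, 0 of the 10 genes were called higher and 0 were called lower in MI mice, against 3.38% of all retained probes called higher and 0.355% called lower (limma). At an unadjusted p under 0.05, 1 of the 10 was lower (Bnip3) and none was higher, with 4.35% of all probes lower and 11.0% higher by that measure. Means were lower in MI mice for 7 genes and higher for 3, Sqstm1, Map1lc3a and Becn1. The median log2 fold change of the 10 genes was -0.17, beside 0.03 over all retained probes. No gene had groups that did not overlap, whereas 6.61% of the 33865 retained probes with a value on every array did so with MI mice higher and 2.39% with MI mice lower. Since no p passed, each gene is given below with its values and its 95% confidence interval, not as unchanged. Limma's p sets the group difference against the spread between these mice, moderated with that of all probes. The exact permutation test ranks the difference among the 70 splits of the labels. With 4 mice per group its smallest p is 0.0286.

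**Figure D1:**
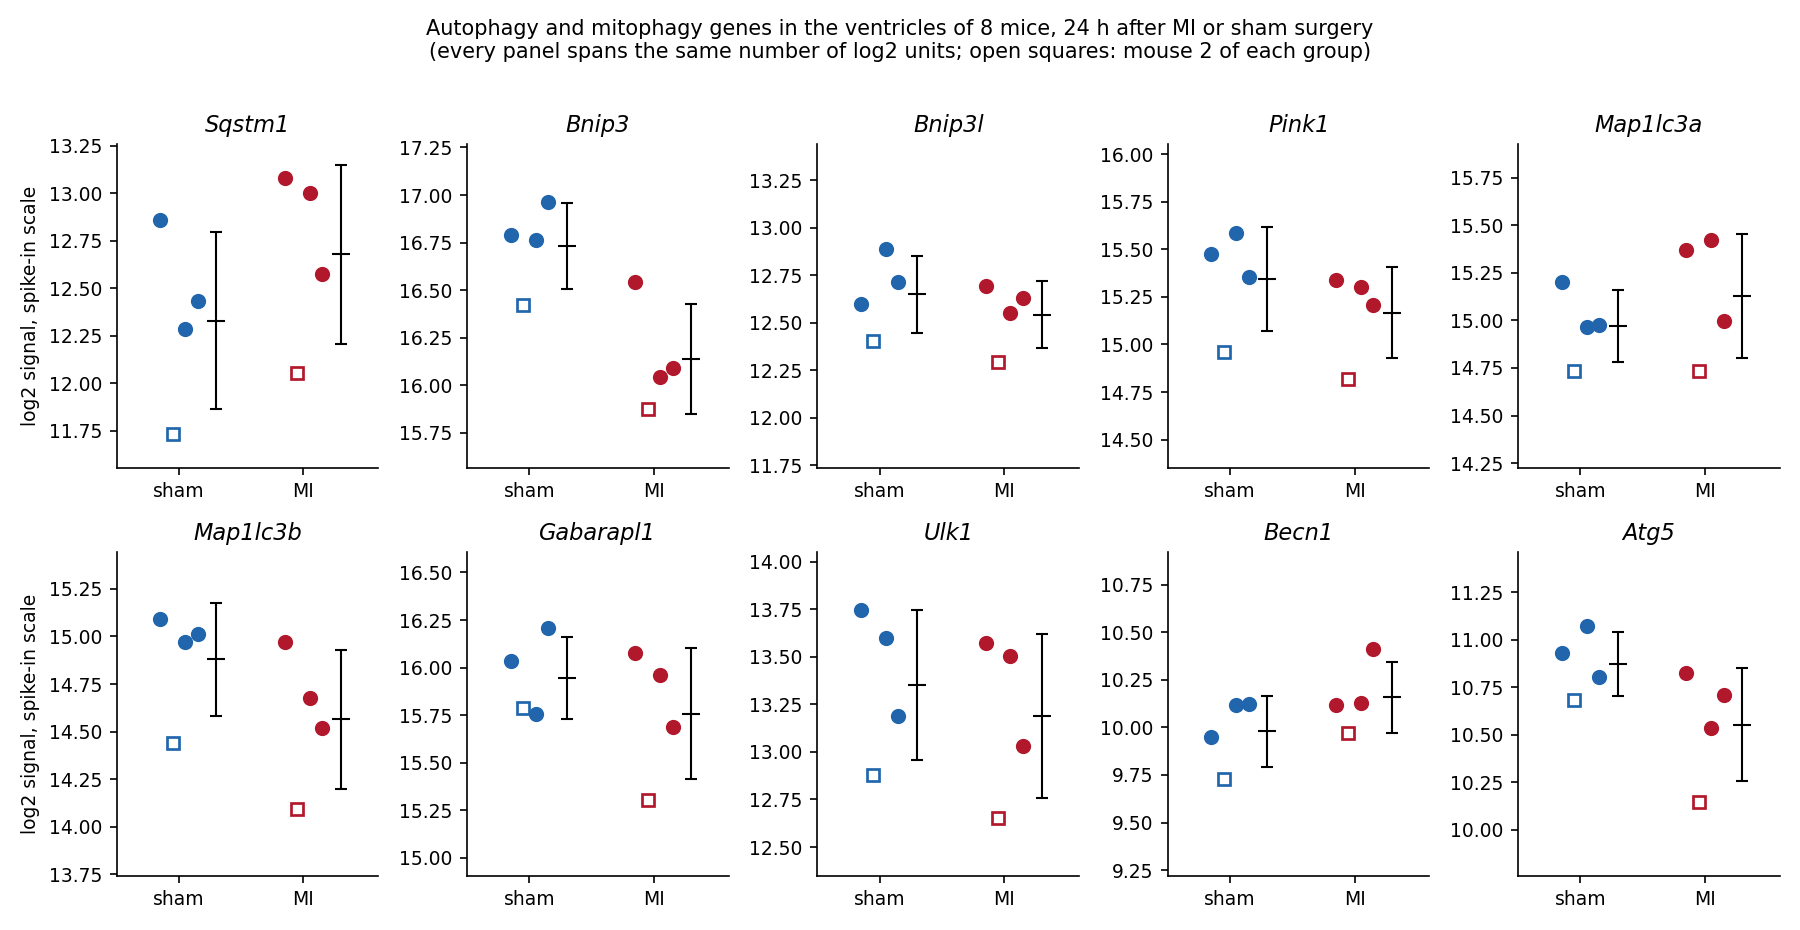
Log2 signal on the spike-in scale (vertical axis, the same number of log2 units in each panel) of the 10 genes in 4 sham mice (blue) and 4 MI mice (red), with the mean and SD in black. Open squares are mouse 2 of each group, the lowest MI mouse for all 10 genes and the lowest sham mouse for 9 of them. Bnip3 shows the largest difference of means, and the groups overlap in every panel.

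Bnip3, which encodes a receptor in the outer mitochondrial membrane, had the largest difference of the 10 genes. Its log2 signal was 16.54, 15.87, 16.04 and 16.09 in MI mice 1 to 4, and 16.79, 16.42, 16.76 and 16.96 in sham mice 1 to 4. A single pair of mice crossed: MI mouse 1 lay above sham mouse 2, and every other MI mouse lay below every sham mouse. The log2 fold change was -0.60 ± 0.16 (SE), with a 95% confidence interval from -0.96 to -0.23, which corresponds to a signal 1.51-fold higher in sham mice. It missed the threshold (limma, adjusted p = 0.0948; exact permutation test, two-sided p = 0.0571). Without MI mouse 1, the mouse that crossed, the difference was -0.73 and passed it (limma, adjusted p = 0.0347). Without any other single mouse it was between -0.70 and -0.51 and was not called (limma, adjusted p from 0.0815 to 0.255). Over all mice, significance analysis of microarrays, the type of test the study used, gave Bnip3 q = 0.0465. That is under 0.05, but the fold was under the 2-fold limit of the study. Within the row of the slide that held mice 1 and 2 of both groups the difference was -0.40, and within the other row it was -0.80. The other probes of Bnip3 gave -0.66 ± 0.17 (adjusted p = 0.072) and -0.36 ± 0.21 (adjusted p = 0.496), so that all 3 probes pointed the same way. In RNA of whole ventricles, fewer cells with a transcript and less of it per cell cannot be told apart, here and for the genes that follow.

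Bnip3l encodes NIX, a receptor related to BNIP3. Its log2 signal was 12.69, 12.29, 12.55 and 12.63 in MI mice and 12.60, 12.40, 12.89 and 12.72 in sham mice, so the groups interleaved. The difference was -0.11 ± 0.12 (limma, adjusted p = 0.816), with an interval from -0.39 to 0.17. Its other 3 probes lay between -0.29 and 0.02, and the direction thus turned with the probe.

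Sqstm1 encodes p62, which ties ubiquitin-marked cargo to the autophagosome and is itself degraded there. It had the largest difference upward: 13.08, 12.06, 13.00 and 12.57 in MI mice against 12.86, 11.74, 12.28 and 12.43 in sham mice. MI mice 1 and 3 lay above every sham mouse, while MI mouse 2 lay below all but sham mouse 2. The difference was 0.35 ± 0.28 (limma, adjusted p = 0.686), with an interval from -0.29 to 0.99, the widest of the 10 genes. Its SD was 0.47 in MI mice and 0.46 in sham mice.

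Pink1 encodes the kinase that accumulates on damaged mitochondria. Its log2 signal was 15.34, 14.82, 15.30 and 15.21 in MI mice and 15.47, 14.96, 15.59 and 15.36 in sham mice. The highest 3 sham mice lay above every MI mouse and sham mouse 2 lay among them. The difference was -0.18 ± 0.16 (limma, adjusted p = 0.736), with an interval from -0.54 to 0.19.

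The means of the LC3 genes differed in opposite directions, each with an interval that reached into both. Map1lc3a had a log2 signal of 15.37, 14.73, 15.42 and 15.00 in MI mice and 15.20, 14.74, 14.96 and 14.98 in sham mice. Map1lc3b had 14.97, 14.09, 14.68 and 14.52 in MI mice and 15.09, 14.44, 14.97 and 15.02 in sham mice. For Map1lc3a, 2 MI mice lay above all sham mice, and for Map1lc3b the highest 3 sham mice lay above 3 MI mice while MI mouse 1 equalled sham mouse 3 to the decimals given. The differences were 0.16 ± 0.17 (interval -0.22 to 0.54) for Map1lc3a and -0.32 ± 0.20 (interval -0.78 to 0.15) for Map1lc3b, and neither was called (limma, adjusted p = 0.786 and 0.565). The Map1lc3b probe was printed on 10 spots of each array, while each of the other 9 genes was read from 1 spot.

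Gabarapl1, of the GABARAP branch of the same family, had a log2 signal of 16.08, 15.30, 15.96 and 15.69 in MI mice and 16.04, 15.79, 15.75 and 16.21 in sham mice. MI mice 2 and 4 lay below all sham mice, and MI mice 1 and 3 lay within their range. The difference was -0.19 ± 0.18 (limma, adjusted p = 0.751), with an interval from -0.60 to 0.21.

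The genes of the earlier steps were also not called. Ulk1, the kinase that integrates nutrient signals, had 13.57, 12.65, 13.50 and 13.03 in MI mice and 13.75, 12.88, 13.60 and 13.19 in sham mice. Its groups interleaved over more than 1 log2 unit, and the difference was -0.16 ± 0.25 (limma, adjusted p = 0.883; interval -0.73 to 0.41). Becn1 had 10.12, 9.97, 10.13 and 10.41 in MI mice and 9.95, 9.73, 10.12 and 10.12 in sham mice. MI mouse 4 stood clear of all sham mice, MI mice 1 and 3 were level with the highest of them, and the difference was 0.18 ± 0.12 (limma, adjusted p = 0.595; interval -0.10 to 0.45). Atg5 had 10.82, 10.15, 10.53 and 10.71 in MI mice and 10.93, 10.68, 11.07 and 10.80 in sham mice. MI mice 2 and 3 lay below all sham mice, and the difference was -0.32 ± 0.15 (limma, adjusted p = 0.371; interval -0.67 to 0.03). Within each row of the slide alone, all 10 genes kept the direction that they had over all mice, and none was called. The rows divide the same mice, so these directions are not independent of those over all mice. Some were near no difference: in the row of mice 1 and 2, Bnip3l gave -0.01 ± 0.23 and Map1lc3a 0.08 ± 0.26.

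The spread within groups had a common part. On the spike-in scale, MI mouse 2 was the lowest MI mouse for 10 of the 10 genes and sham mouse 2 the lowest sham mouse for 9 of 10, and MI mouse 1 was the highest MI mouse for 8. The same mice were low over the whole array: the median log2 signal of all retained probes was 8.50 in MI mouse 2 and 8.47 in sham mouse 2, and between 8.59 and 8.84 in the other mice. When each array was scaled instead to the 75th percentile of its own signals, MI mouse 2 was the lowest MI mouse for 1 of the 10 genes and sham mouse 2 the lowest sham mouse for 4. The median SD of the 10 genes was 0.31 in MI mice and 0.22 in sham mice on the spike-in scale, and 0.18 and 0.17 on the 75th percentile scale.

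Under the 75th percentile scaling, 4 of the 10 genes were called lower in MI mice, and 0 were called higher. On that scale 8.84% of all retained probes were called lower and 8.70% higher, a nearly even division (3010 and 2963 probes) in contrast to 121 lower and 1150 higher with the spike-in RNA. The genes called lower were Bnip3, Atg5, Map1lc3b and Pink1. Bnip3 had 16.32, 16.20, 15.76 and 15.98 in MI mice and 16.71, 16.78, 16.63 and 17.08 in sham mice, with a difference of -0.73 ± 0.16 (limma, adjusted p = 0.0142). Of its other probes, A_55_P2091472 gave -0.80 ± 0.14 (limma, adjusted p = 0.00682). The dimmest, A_66_P120736, gave -0.56 ± 0.19 and was not called (limma, adjusted p = 0.0816). Atg5 had 10.42, 10.19, 10.04 and 10.41 in MI mice and 10.68, 10.86, 10.79 and 10.74 in sham mice, with a difference of -0.50 ± 0.12 (limma, adjusted p = 0.0211). All 4 MI mice lay below all 4 sham mice in both genes.

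Map1lc3b on this scale had 14.74, 14.41, 14.39 and 14.40 in MI mice and 15.00, 14.79, 14.83 and 15.12 in sham mice, with a difference of -0.45 ± 0.13 (limma, adjusted p = 0.0404). Pink1 had 15.11, 15.14, 15.02 and 15.09 in MI mice and 15.38, 15.32, 15.45 and 15.47 in sham mice, with a difference of -0.31 ± 0.09 (limma, adjusted p = 0.0496). These groups did not overlap either, which made 4 of the 10 genes with MI mice lower, beside 12.7% of all probes, and 0 with MI mice higher, beside 11.0%. The folds were modest, between 1.24 and 1.66 as sham over MI, and none of the 10 genes passed the 2-fold limit of the study on either scale (0.978% of all probes were called over 2-fold on the spike-in scale and 4.24% on this one). Sqstm1, Map1lc3a and Becn1 kept higher means in MI mice (0.23 ± 0.19, 0.03 ± 0.11 and 0.09 ± 0.16) and were not called. The median of the 10 genes was -0.31, and that of all probes -0.02. Quantile normalization and normexp each called Bnip3 and Atg5 lower, 2 of the 10 genes, with 9.27% and 10.9% of all probes called lower. In the normalized values of the authors, which rest on the spike-in RNA too, 0 of the 10 genes were called in either direction (limma), beside 5.02% of probes higher and 0.967% lower. Of the marker lists on the 75th percentile scale, 8 of 10 neutrophil markers were called higher, as were 2 of 9 monocyte and macrophage, 1 of 7 lymphocyte, 1 of 7 endothelial and 1 of 5 smooth muscle markers. The fibroblast list had a median of -0.53 with lower means for 7 of 8 genes and 0 called, on the spike-in scale a median of -0.39. The cardiomyocyte list had a median of -0.18 with 1 of 12 called lower (Pln, a regulator of the calcium pump). The part of any of these lists in the 4 calls was not tested. Which scaling is nearer to the amounts of RNA in the tissue was not tested.

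**Figure D2:**
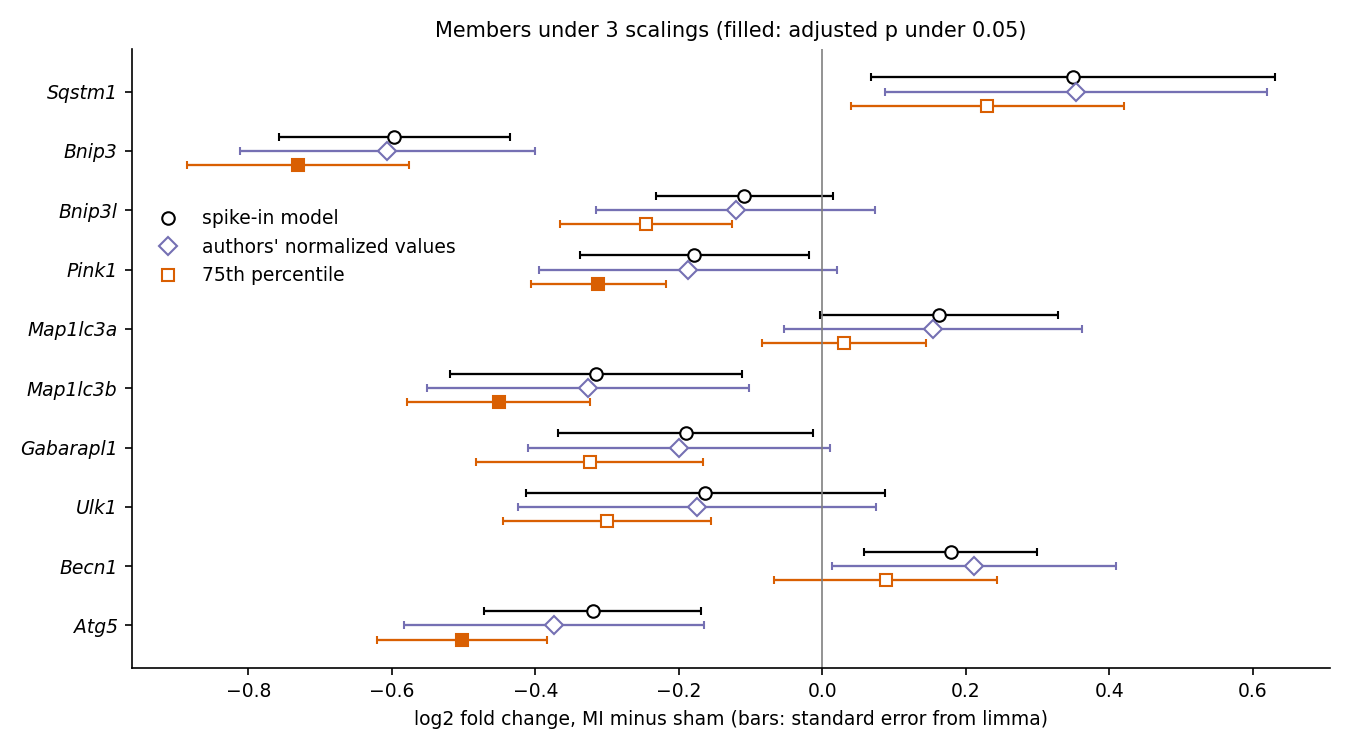
Log2 fold change (MI minus sham, horizontal axis) of the 10 genes with limma's standard error, for the spike-in model (circles), the authors' normalized values (diamonds) and the 75th percentile scaling (squares). Filled symbols have an adjusted p under 0.05. Only squares are filled, for Bnip3, Pink1, Map1lc3b and Atg5, and each gene keeps its direction over the 3 scalings.

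Stretches before the start sites are shown for the 3 genes that had the largest differences downward on the 75th percentile scale, Bnip3, Atg5 and Map1lc3b, because the letters CACGTG stand in the first pair of them and not in the third gene. CACGTG is an E-box and the core of the sites read by the MiT/TFE factors that govern lysosomal and autophagy genes. It contains ACGTG, the core of the element bound by hypoxia-inducible factors. Only these core letters were searched, not the bases that flank them in a full site. The sequences are those of RefSeq on build GRCm38.p6, each 100 bases long and written 5′ to 3′ on the strand of the gene, with the CACGTG letters in capitals. The Bnip3 stretch lies at chr7:138909557-138909656 on the minus strand, the Atg5 stretch at chr10:44268239-44268338 on the plus strand and the Map1lc3b stretch at chr8:121590338-121590437 on the plus strand.
Bnip3: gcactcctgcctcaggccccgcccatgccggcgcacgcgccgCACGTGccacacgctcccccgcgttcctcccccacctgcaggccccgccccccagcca
Atg5: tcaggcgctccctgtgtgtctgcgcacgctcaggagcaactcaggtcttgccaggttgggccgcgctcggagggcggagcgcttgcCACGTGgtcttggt
Map1lc3b: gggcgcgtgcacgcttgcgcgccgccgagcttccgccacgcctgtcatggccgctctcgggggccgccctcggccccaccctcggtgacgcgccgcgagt
The E-box begins at base -108 of Bnip3 and base -14 of Atg5, counted from the start site. RefSeq promoter windows, from 250 bases before the start to 50 after it, were at hand for 7 of the 10 genes, and 2 of the 7 held CACGTG on either strand, as did 7.15% of all 32851 windows. ACGTG was found in the same pair and nowhere else among the 7, and in 19.6% of all windows. The window of Pink1, the remaining gene called lower on the 75th percentile scale, thus held neither CACGTG nor ACGTG. TGACNNNGC, the core of the antioxidant response element, was found in Map1lc3b alone, at bases 4 to 12 after the start, and in 12.4% of all windows, and GTAAACA, a FoxO element, in none of the 7 and in 3.65% of all windows. These matches describe letters, and no binding was measured.

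In the difference between bright genes of the same mouse a factor that scales the whole array cancels nearly, so the genes were also compared pair by pair. With dim genes the additive constants of the spike-in scale leave a part: the group difference of Becn1 minus Atg5 was 0.50 on that scale and 0.59 on the 75th percentile scale, and that of Bnip3 minus Becn1 -0.77 and -0.82. Only the shift of such a difference between groups can be read, since signals of separate probes have no common unit. Of the 45 pairs of the 10 genes, 13 had groups that did not overlap, a share near the 27.2% found over all pairs of genes with a retained probe. The pairs described here were picked after their values were seen, and no test is given for them.

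One of the picked pairs was Map1lc3a and its sister gene Map1lc3b, neither of them called alone on the spike-in scale. The log2 signal of Map1lc3a minus that of Map1lc3b was 0.40, 0.64, 0.74 and 0.48 in MI mice and 0.11, 0.29, -0.01 and -0.04 in sham mice. The groups did not overlap, and the means, 0.57 ± 0.15 (SD, n = 4) and 0.09 ± 0.15 (SD, n = 4), were 0.48 apart on the spike-in scale and on the 75th percentile scale alike. Bnip3 against Bnip3l was another of the picked pairs. Their difference was 3.85, 3.58, 3.49 and 3.46 in MI mice and 4.19, 4.02, 3.88 and 4.25 in sham mice. The means were 0.49 lower in MI mice. The margin was thin, since MI mouse 1 stood just below sham mouse 3. The size of this shift depends on the probes used. Group differences ran from -0.66 to -0.36 over the probes of Bnip3 and from -0.29 to 0.02 over those of Bnip3l.

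Sqstm1 against Bnip3 shifted the most of the 13 pairs. Their difference was -3.47, -3.82, -3.04 and -3.52 in MI mice and -3.93, -4.69, -4.48 and -4.53 in sham mice, which makes the Sqstm1 to Bnip3 ratio 1.93-fold higher in MI mice. Pink1 against Map1lc3a gave -0.03, 0.09, -0.12 and 0.21 in MI mice and 0.27, 0.23, 0.62 and 0.38 in sham mice. Here too the groups were apart, with MI mouse 4 next to sham mouse 2. Bnip3 was in 5 of the 13 pairs, as was Map1lc3a. Set against all genes with a retained probe, Bnip3 had non-overlapping groups with 65.5% of them, Map1lc3b with 23.2%, Map1lc3a with 16.8% and Sqstm1 with 7.98%. These shares were counted for these 4 genes only, so they do not rank Bnip3 among the 10. Bnip3 also had the largest group difference of the 10 genes, and its share in part restates that difference. Within the 10 genes, 5 of the 9 pairs with Bnip3 did not overlap.

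**Figure D3:**
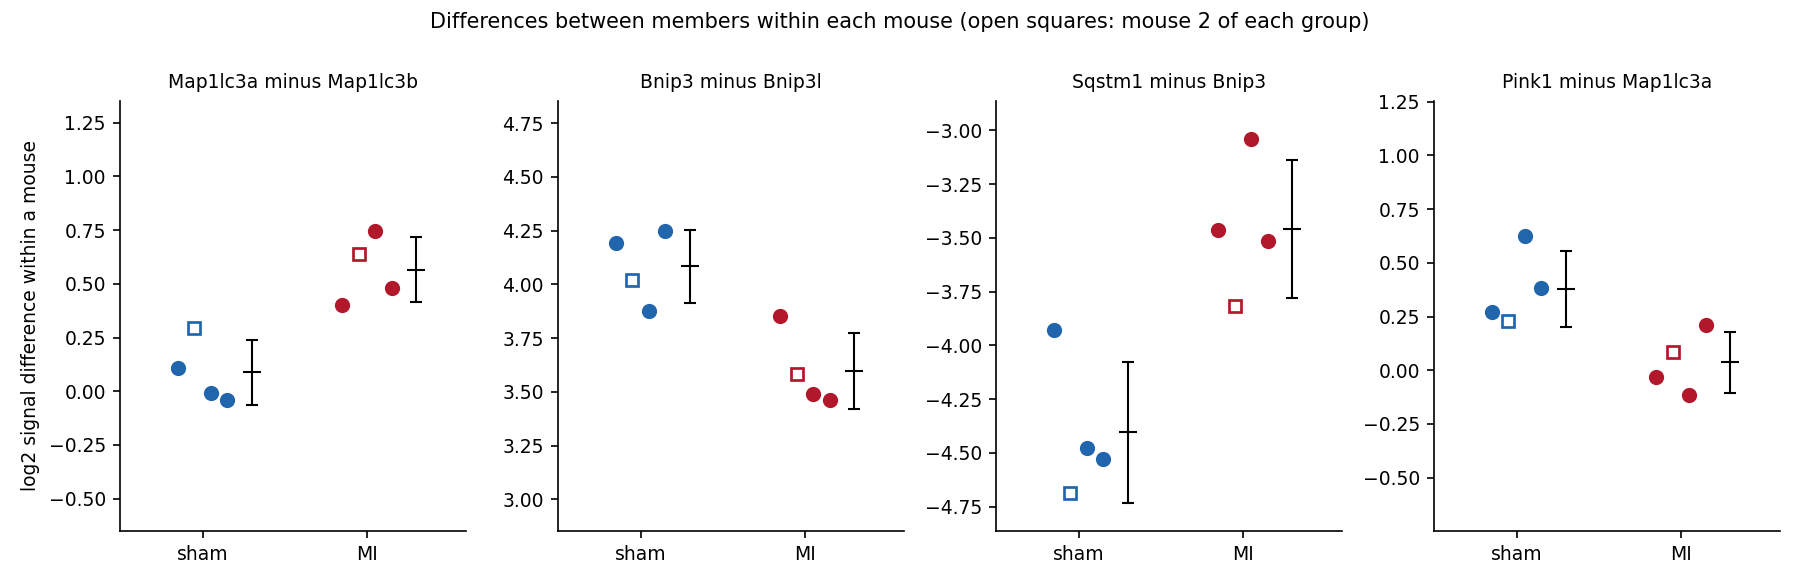
Log2 signal of a gene minus that of another in the same mouse (vertical axis), for 4 pairs in 4 sham mice (blue) and 4 MI mice (red), with the mean and SD in black. Open squares are mouse 2 of each group, which is the lowest mouse of both groups for Sqstm1 minus Bnip3 alone among the 4 pairs. The groups do not overlap in any of the 4 pairs, which were picked for that.

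The rest of the pathway was read from 122 other genes in 9 lists by role, of which 120 had a retained probe (Atg4a and Atp6v0d2 had none). On the spike-in scale 2 of the 120 were called higher and 0 lower (limma; 9 and 8 at an unadjusted p under 0.05), shares of the same order as those of all probes. The median log2 fold change was 0.02. Atp6v1b2, a subunit of the proton pump that acidifies lysosomes, had 9.81, 9.47, 9.99 and 9.67 in MI mice and 9.10, 8.80, 9.06 and 9.08 in sham mice. It was 1.65-fold higher in MI mice (0.72 ± 0.12, limma, adjusted p = 0.0142). Trib3, a pseudokinase induced by the integrated stress response, had 10.03, 9.96, 10.53 and 9.95 in MI mice and 9.40, 9.11, 9.48 and 9.30 in sham mice, and was 1.73-fold higher (0.79 ± 0.14, limma, adjusted p = 0.0205). In both genes every MI mouse lay above every sham mouse. Both were also called higher on the 75th percentile scale and in the normalized values of the authors. Atp6v1b2 and Trib3 were 1.91-fold and 1.90-fold higher on the 75th percentile scale. In the authors' values both passed 2-fold (log2 fold change 1.03 for each). Trib3 missed the threshold without sham mouse 2 (limma, adjusted p = 0.0649) and without sham mouse 4 (limma, adjusted p = 0.0723).

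Of the 13 transcription factors and stress regulators, 9 had higher means in MI mice, and their median of 0.31 was the highest of the 9 lists. Trib3 was the 1 called. Atf4, the transcription factor of the integrated stress response, had non-overlapping groups and a difference of 0.71 ± 0.16 that missed the threshold (limma, adjusted p = 0.0559). Ddit4, an inhibitor of mTORC1, had -0.73 ± 0.36 and was not called (limma, adjusted p = 0.409), but was called lower on the 75th percentile scale (-0.87 ± 0.23, limma, adjusted p = 0.0317). The medians of the other 8 lists lay between -0.10 (nucleation complex) and 0.09 (membrane source and lipid transfer), and in none of these but the lysosome list was a gene called.

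On the 75th percentile scale 20 of the 120 other pathway genes were called lower and 5 higher, beside 8.84% and 8.70% of all probes, and the median was -0.11. By role, the genes called lower were 2 of 11 in the initiation complex, 3 of 10 in the nucleation complex, 3 of 11 in conjugation and the ATG8 family, 1 of 14 cargo receptors, 4 of 19 in mitophagy and mitochondrial dynamics, 1 of 12 in fusion, 4 of 21 in the lysosome and 2 of 13 among regulators, and 0 of 9 in membrane source and lipid transfer. Atg10, which conjugates ATG12 to ATG5, gave -0.81 ± 0.13 (limma, adjusted p = 0.00523). Atg14, which directs the Beclin 1 complex to autophagy, gave -0.57 ± 0.11 (limma, adjusted p = 0.0116). Among mitophagy genes the receptors Fundc1 and Bcl2l13 gave -0.59 ± 0.14 and -0.57 ± 0.14 (limma, adjusted p = 0.0242 and 0.0214). Fkbp8, a receptor of the same list, gave 0.33 ± 0.15 (limma, adjusted p = 0.167), and Phb2, another, -0.11 ± 0.14 (limma, adjusted p = 0.618), and the list had a median of -0.14.

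The 5 genes called higher on that scale were Atp6v1b2, Trib3, Sesn2, Rab7 and Tfe3. Rab7 encodes the GTPase of late endosomes that serves fusion with lysosomes, and gave 0.65 ± 0.14 (limma, adjusted p = 0.0167). Sesn2, a stress-induced brake on mTORC1, gave 0.79 ± 0.18 (limma, adjusted p = 0.0182), while its relative Sesn1 gave -0.62 ± 0.14 (limma, adjusted p = 0.0158). Tfe3, one of the MiT/TFE factors, gave 0.36 ± 0.10 (limma, adjusted p = 0.0387). Each of these genes had the same direction on the spike-in scale, where Atp6v1b2 and Trib3 alone were called. The names on this scale and those of Atf4 and Ddit4 were chosen after the values were seen.

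**Figure D4:**
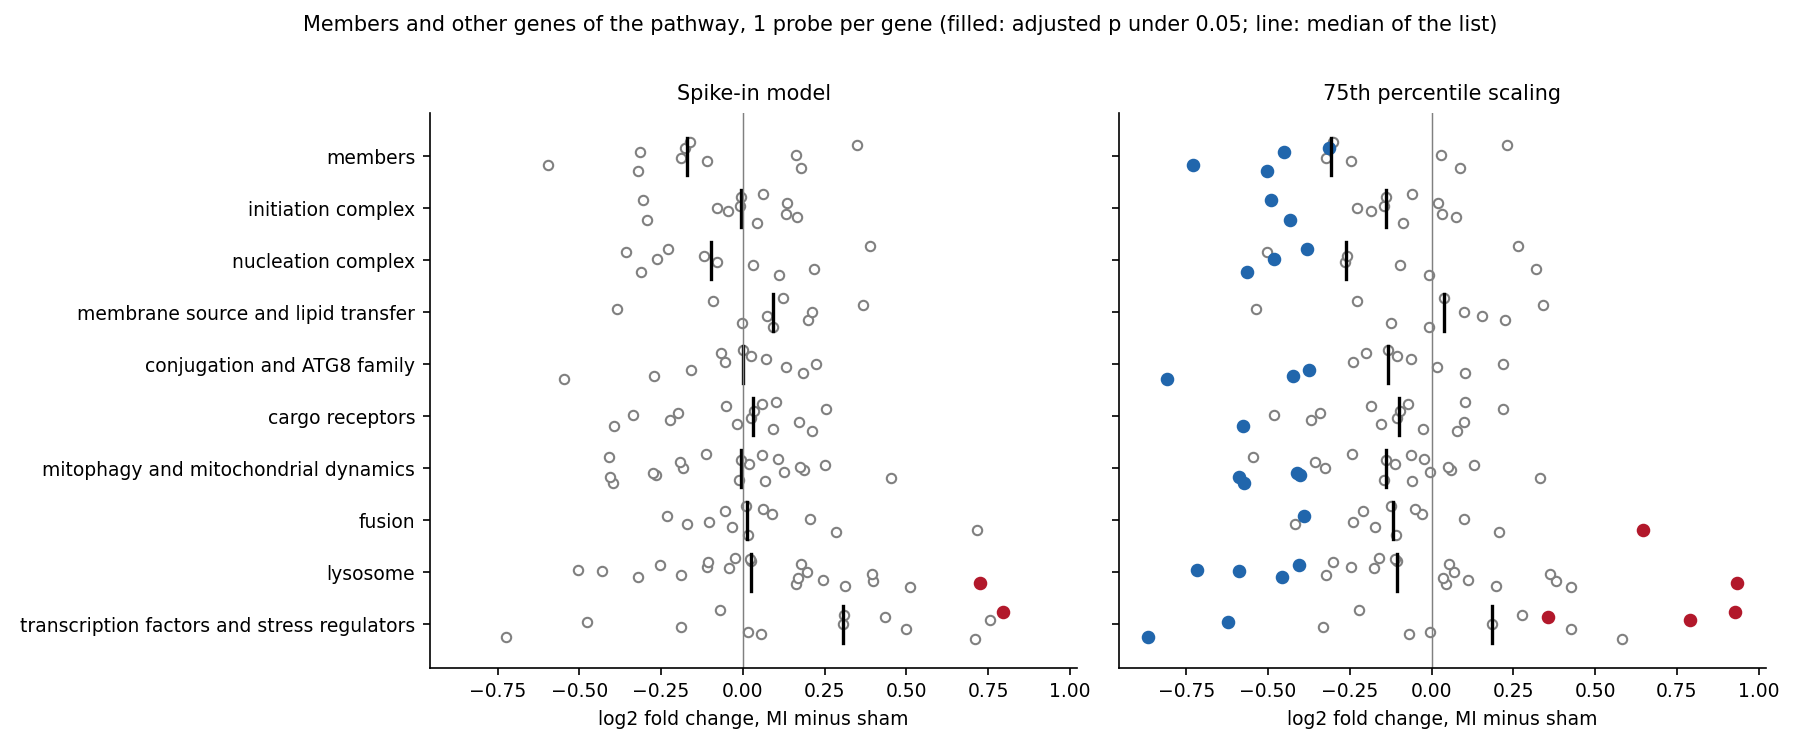
Log2 fold change (MI minus sham, horizontal axis) of the 10 genes (top row, members) and of 120 other genes of the pathway by role, on the spike-in scale (left) and the 75th percentile scale (right). Each point is the probe of 1 gene, filled red or blue where called higher or lower in MI mice, and black lines are medians. On the left 2 points are filled, and on the right 4 of the 10 genes and 25 other genes are.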

How the data were processed

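Cardiac RNA of 4 MI and 4 sham mice was measured with 1 Agilent 8x60K mouse array per mouse, all on 1 slide and read in 1 scan. The deposited intensities were made, per the file headers, with Feature Extraction 11.0.1.1, which subtracted the local background, removed trends within the array and put a surrogate for spots not above background. The deposited log2 values of the authors rest on spots well above background and on a normalization to the spike-in probes (limma and vsn), and served as an alternative.

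Groups came from the sample labels. The vsn likelihood was fitted, with own code tested on simulated data, to 234 spots of 7 spike-in probes, which yielded 1 scale and 1 additive constant per array (166 to 257). These constants understate the fold changes of dim probes. Outlier and control spots were removed, the spots of a probe were averaged, and the 34038 probes well above background on at least 4 arrays were retained. Gene symbols came from RefSeq on GRCm38.p6. MI was compared with sham in limma 3.58.1 (R 4.3.3) without covariates, with Benjamini-Hochberg adjustment over all retained probes, and single genes by an exact two-sided permutation test. Tables and figures were made with Python 3.11.15 (numpy 2.4.6, scipy 1.17.1, pandas 2.3.3, matplotlib 3.10.9). Precision is limited by the number of arrays.

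The members, the pathway and marker lists and the tests were chosen with earlier results of these data known. Named were the 10 members, in each pathway list the called genes with the largest folds (at most 2 per direction) and any gene over 2-fold, and the brightest marker. Other names were chosen after their values were seen. Alternatives covered scaling (75th percentile, spike-in shift, quantile, normexp with an offset of 50, additive constants found in the authors' values), the authors' values, detection filters, spots not well above background as missing, significance analysis of microarrays over all 70 splits of the labels, an unmoderated t-test, a 2-fold limit, replicate and array row blocks, each row alone, other probes, and each mouse left out. Protein sequences were not used here, and some genes of the lists are counted but not reported by name.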

Additional observations from a re-analysis of the deposited data

Results flagged for a closer look

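One of the less bright probes of Bnip3l, A_55_P2046943, was flagged because a mouse stood far from the rest of its group. On the spike-in scale sham mouse 3 had a log2 signal of 11.95, while the other sham mice lay between 11.46 and 11.51. The gap made up 0.894 of the range of the group. It was 1 of 30 groups examined (15 probes in 2 groups), and chance alone flags about 1 group in 20. The brightest probe of Bnip3l did not meet the criterion.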

How the results depend on the processing

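No alternative called any of the 10 genes higher. The count called lower, 0 in limma on the spike-in scale, was 4 with the 75th percentile scaling, 2 with quantile normalization (Bnip3 and Atg5), 2 with normexp (the same genes), 1 by significance analysis of microarrays (Bnip3, q = 0.0465) and between 0 and 1 with a mouse left out (Bnip3 without MI mouse 1). The other pathway genes called higher, 2 at first, numbered 5, 6 and 8 with the 75th percentile, quantile and normexp scalings, 5 with the authors' additive constants, 9 by significance analysis of microarrays, 0 by the unmoderated t-test, 0 in either row of the slide alone, 0 with the 2-fold limit and between 1 and 4 with a mouse left out (4 without MI mouse 2, and 1 without sham mouse 2 or 4). In the authors' values, 3 of the other pathway genes were called higher, and 2 of them passed the 2-fold limit. The one that did not was Sesn2 (log2 fold change 0.90, limma, adjusted p = 0.0478). The other pathway genes called lower, 0 at first, numbered 20, 16 and 22 with the 75th percentile, quantile and normexp scalings. They numbered 1 by significance analysis of microarrays and between 0 and 1 with a mouse left out (1 without MI mouse 2 or 4). Over all probes, 1150 were called higher and 121 lower. These became 2963 and 3010 with the 75th percentile, 2988 and 3154 with quantile normalization, 3313 and 3722 with normexp, 2157 and 435 with the authors' constants, 3673 and 396 by significance analysis of microarrays, 514 and 4 by the t-test, 222 and 4 in the first row of the slide and 240 and 17 in the other. They were 1614 and 248 with the spike-in shift, 1704 and 328 in the authors' values, 885 and 26 without the detection filter and 1083 and 73 with the row as a block. With a mouse left out, between 576 and 2067 probes were called higher and between 7 and 203 lower. The extremes were 2067 and 203 without MI mouse 2, 576 higher without sham mouse 4 and 7 lower without MI mouse 3. Without MI mouse 1, the fit that called Bnip3, 730 probes were called higher and 117 lower. The direction turned for Bnip3l with the probe A_55_P2073699 (0.017) and for Ulk1 without MI mouse 2 (0.016, in a range from -0.32 to 0.016 with a mouse left out), and for no other gene of the 10. The cause of these moves was not tested.

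The labels number the mice of each group 1 to 4. Deviations from the group means of same-numbered mice correlated at 0.277, 0.364, 0.087 and 0.001, and only mice 1 and 2 correlated best with their own number, so the numbers were not taken as pairs. With the replicate block, 3 of the 10 genes were called lower (Bnip3, Map1lc3b and Ulk1), beside 865 of the 34038 retained probes lower and 4070 higher. Of the other pathway genes, 17 were called higher and 7 lower.

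The scale between arrays was a limit. On the spike-in scale mouse 2 of each group was low for nearly all members, from a cause that was not tested, and the 75th percentile scale fixes the level of each array. Atg5 and Pink1 were called lower only on scales that fix this level, Pink1 on the 75th percentile scale alone. With 4 mice per group the intervals of single genes were wide, up to that of Sqstm1 (-0.29 to 0.99). All values are transcript levels of whole ventricles at 1 time, in which neutrophil markers rose.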
